A study of Mus musculus with 8 samples.

Results

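The nuclear-encoded subunits of the mitochondrial respiratory chain and ATP synthase were examined in mouse embryonic stem (ES) cells by RNA sequencing. They were chosen by gene symbol: Ndufa, Ndufb, Ndufc, Ndufs and Ndufv genes with a number, Sdha to Sdhd, Uqcr genes, Cox4 to Cox8 genes and Atp5 genes, leaving out Ndufa4l2 and names that mark pseudogenes or related sequences. The rule gave 83 of the 47729 genes in the deposited count files. They comprised 35 genes of complex I, 4 of complex II, 8 of complex III, 19 of complex IV (Ndufa4, a cytochrome c oxidase subunit despite its name, was placed here) and 17 of complex V. The 17 were placed there by the symbol Atp5 alone. Whether each of them, such as Atp5sl, is a part of ATP synthase was not checked. A total of 81 passed the filter on low counts, and 2 complex IV isoforms, Cox6a2 and Cox8b, did not.

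The respiratory chain sits in the inner mitochondrial membrane. Complexes I and II pass electrons from NADH and succinate to coenzyme Q, complex III passes them to cytochrome c, and complex IV passes them to oxygen. Complexes I, III and IV pump protons as they do so, and complex V, the ATP synthase, lets the protons flow back to make ATP. Most subunits are encoded in the nucleus and a small core set in the mitochondrial genome, so that a working complex needs products of both. Mouse ES cells make much of their ATP by glycolysis but also respire.

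All cells were of the E14TG2a ES line (strain 129/Ola), kept for 48 h in medium with 15% serum and LIF, a cytokine that maintains ES cells. QKO cells were TCF7-/-, TCF7L1-/-, TCF7L2-/- and LEF1-/- and so lacked all full-length members of the TCF/LEF family, the DNA-binding partners of beta-catenin in Wnt signalling. By the series' design, QKO cells with a single copy of TCF7 put back form the group titled QT7, and those with a single copy of TCF7L1 put back the group titled QT7L1. The genotype tags run the other way, giving TCF7L1(+/-) for QT7 and TCF7(+/-) for QT7L1, so the groups are called here by their titles. Each of the 4 groups, QT7, QT7L1, QKO and WT, had n = 2 libraries. QT7, QT7L1 and QKO were represented by clones A and B, here libraries 1 and 2, and WT by 2 biological replicates of the parental line. The spread within WT therefore contains no difference between clones. The design asks how loss of the TCF/LEF factors and return of a single factor change gene expression.

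The depth of a library was between 31573536 and 43362627 counts. Levels are given as CPM, that is counts divided by the TMM-scaled library size and multiplied by 1000000. The summed level of 8 ES cell markers lay between 5874 and 6971 CPM in the 8 libraries, with Pou5f1 and Sox2 high in each. The 15 fibroblast markers, which feeder cells would carry, summed to 36.4 and 79.7 CPM in QT7, 44.1 and 59.5 CPM in QT7L1, 132 and 42.6 CPM in QKO, and 103 and 71.2 CPM in WT. Of these, Lum was at 0 in each library and Dcn at or below 0.0939 CPM. Col1a1 varied widely, from 2.58 CPM in QT7 1 to 38.6 CPM in WT 1 and 51.0 CPM in QKO 1. Col1a2 was at 0.10, 25.6 and 34.5 CPM in the same libraries. Pdgfrb and Thy1 ran differently. Pdgfrb was at 11.2 and 24.6 CPM in QT7, 15.2 and 20.2 in QT7L1, 5.93 and 6.82 in QKO, and 9.95 and 14.2 in WT. Thy1 was at 17.4 and 19.2 CPM in QT7, 18.0 and 14.4 in QT7L1, 20.4 and 19.2 in QKO, and 7.98 and 11.5 in WT. Neither the sums nor the collagen genes thus stand for each marker. Tcf7 transcript was at 16.6 and 20.9 CPM in QT7, 10.1 and 12.7 CPM in QT7L1, 7.97 and 19.7 CPM in QKO, and 59.6 and 61.9 CPM in WT. Tcf7l1 was at 27.4 and 22.4 CPM in QT7, 36.9 and 27.5 CPM in QT7L1, 38.3 and 39.1 CPM in QKO, and 73.6 and 68.8 CPM in WT. Both transcripts were thus lower in each mutant library than in WT and present in all of them. Counts per gene do not separate full-length from truncated transcripts and so do not check the rescue.

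Subunit transcripts were abundant and varied little. Together the 83 genes held 1.24 to 1.45% of the counts of a library. Their summed level was 12623 and 13866 CPM in QT7, 14541 and 14019 CPM in QT7L1, 14441 and 13219 CPM in QKO, and 12277 and 12676 CPM in WT. Both WT libraries were near the low end, and the highest library exceeded the lowest by a factor of 1.18. By complex this factor was between 1.16 for complex V and 1.27 for complex IV. Of the 81 tested genes, 61 varied by less than 1.5-fold between the lowest and the highest of the 8 libraries and 75 by less than 2-fold. The 6 others were Cox6b2, Atp5s, Cox7a1, Cox4i2, Cox8c and Cox7b2, of which all but Atp5s belong to complex IV. The same ranges were not computed for all genes, so whether the subunits varied less than other genes was not tested. Per length of the principal transcript the highest levels were those of Atp5b, the catalytic beta subunit of ATP synthase, with 1324 CPM per kb, Cox4i1 with 741 and Atp5a1, the alpha subunit, with 553. These were also the 3 highest per length of all exons, with Atp5a1 then ahead of Cox4i1.

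**Figure D1:**
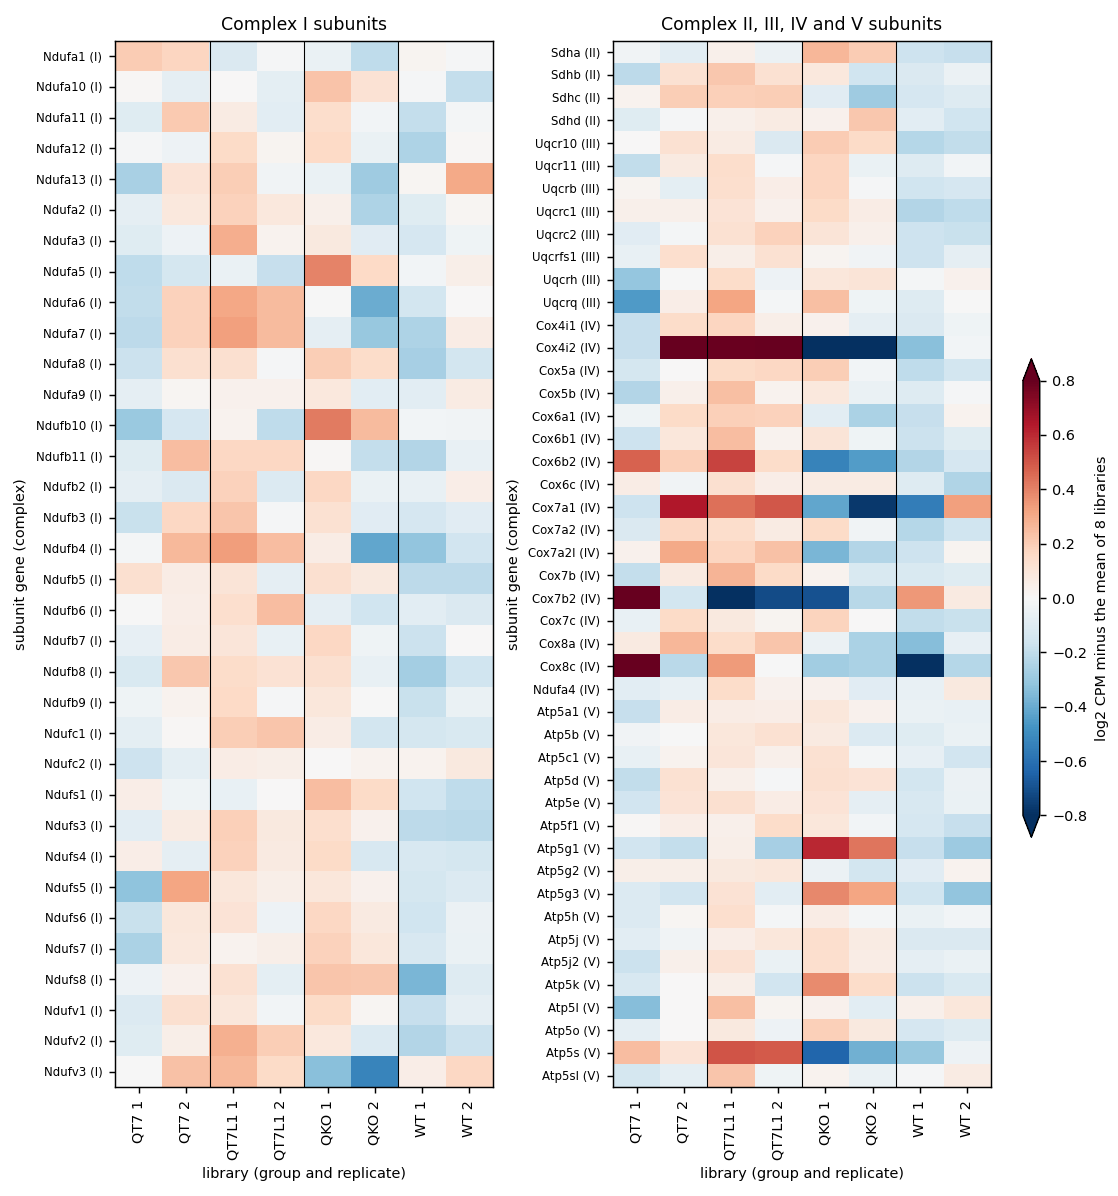
Level of the tested subunit genes, all but 1 of the 81 (rows, with the complex in brackets), in the 8 libraries (columns), as log2 CPM minus the gene's mean over the 8 libraries; the colour scale ends at 0.8 on either side. Most rows are pale, the WT columns are mostly blue, and the rows that stand out are Atp5g1, Atp5g3 and Ndufb10 (high in QKO), Ndufv3, Cox6b2 and Cox4i2 (low in QKO) and the rare isoforms Cox7b2 and Cox8c.

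In QKO against WT, 12 of the 81 subunit genes differed at an adjusted p under 0.05 (edgeR quasi-likelihood test, Benjamini-Hochberg over all genes), 11 of them higher and 1 lower. That is 14.8% of the subunits, against 26.4% of all 16515 genes tested. By direction, 11.7% of all genes were higher and 14.7% lower. The median log2 fold change of the subunits was 0.15, against -0.01 over all genes, and 61 of the 81 were positive. Higher genes belonged to complex I (5 genes), complex II (1), complex III (2) and complex V (3), and none to complex IV. In QT7 against QKO, 9 subunits were called (11.1%, against 26.9% of all genes), 4 higher (14.8% of all genes) and 5 lower (12.1% of all genes), with a median of -0.05 against 0.05 over all genes. In QT7L1 against QKO, 15 were called (18.5%, against 29.7% of all genes), 11 higher (15.9% of all genes) and 4 lower (13.9% of all genes), with a median of 0.05 against 0.02. These 3 comparisons share the QKO libraries, so that a deviation of those libraries enters each of them. In each, a smaller share of subunits than of all genes was called.

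The counts depended on the scaling and on single libraries. With no scaling beyond library size the splits were 5 higher and 1 lower in QKO against WT, 9 and 3 in QT7 against QKO, and 15 and 2 in QT7L1 against QKO. Over all 16515 genes they were then 1298 and 2906, 3172 and 1335, and 3053 and 1819, in the same order. With TMM they were 1933 and 2433, 2451 and 1998, and 2623 and 2289. The number of higher calls thus moved the same way in the subunits and in all genes. Leaving out TMM moved the median of all genes in QT7 against QKO to 0.15, a shift of about 0.1, and that of the subunits to 0.05. Relative to all genes the subunit median was lower by 0.10 under both scalings, and in QKO against WT it was higher by 0.16 under both. That last difference was 0.08 without WT 1, 0.10 without QKO 1 and 0.24 without QKO 2. For QKO against WT, fewer subunits were called when a WT or a QKO library was left out. The same held for QT7 against QKO without a QKO library, and for QT7L1 against QKO without a QKO or a QT7L1 library. In each of these fits fewer of all genes were called too, and the share of subunits called was below that of all genes. The drop was thus not particular to the subunits. In QT7 against QKO the subunit median was 0.02 both without QKO 1 and without QT7 1. In QT7L1 against QKO the subunit median was -0.01 without QKO 2.

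**Figure D2:**
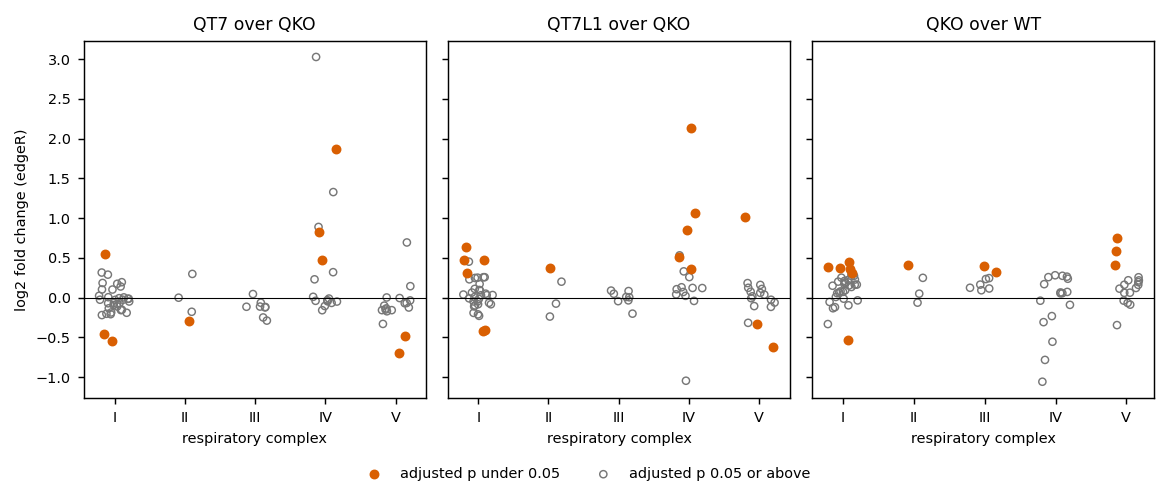
Log2 fold change of each tested subunit gene (points, spread sideways at random within a complex) in QT7 over QKO, QT7L1 over QKO and QKO over WT, by respiratory complex; filled points have an adjusted p under 0.05. Most points lie within 0.5 of 0, complex IV holds the largest changes over QKO, and the complex V genes called in QKO over WT lie above 0.

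The clearest change was in the ring of subunit c, the rotor of ATP synthase that turns as protons pass. Subunit c is made from 3 genes, Atp5g1, Atp5g2 and Atp5g3, whose precursors differ in their targeting peptides and give the same mature protein. Atp5g1 (chr11:96068852-96075670, minus strand, GRCm38) was at 159.5 and 155 CPM in QT7, 183 and 148 CPM in QT7L1, 269.6 and 239 CPM in QKO, and 156 and 145 CPM in WT. Both QKO libraries lay above the other 6, which overlapped among themselves. The level in QKO exceeded that in WT by 0.76 ± 0.12 (log2 fold change ± SE, adjusted p = 0.00232). It was lower in QT7 than in QKO by a log2 fold change of -0.69 ± 0.12 (adjusted p = 0.00297) and lower in QT7L1 than in QKO by -0.62 ± 0.12 (adjusted p = 0.00424).

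Atp5g3 (chr2:73908447-73911326, minus strand) was at 240 and 233 CPM in QT7, 280.2 and 244 CPM in QT7L1, 338 and 322 CPM in QKO, and 232 and 208 CPM in WT. Again both QKO libraries were above all others, with QT7L1 1 the next. It rose in QKO against WT by 0.59 ± 0.10 (adjusted p = 0.00356) and fell in QT7 against QKO (-0.48 ± 0.10, adjusted p = 0.00735). In QT7L1 against QKO it was lower by -0.33 ± 0.10 (adjusted p = 0.0311). Atp5g2 (chr15:102662864-102672352, minus strand), the other source of subunit c, was at 115 and 115 CPM in QT7, 117 and 119 CPM in QT7L1, 108 and 100.4 CPM in QKO, and 104 and 113 CPM in WT. The QKO and WT values overlapped, and the log2 fold change in QKO over WT was -0.07 ± 0.09 (adjusted p = 0.631). Whether Atp5g2 responded differently from Atp5g1 and Atp5g3 was not tested.

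With each of the 8 libraries left out in turn, Atp5g1 was called in all 8 fits of the 3 comparisons, at adjusted p between 0.000832 and 0.027 for QKO against WT, up to 0.0258 for QT7 against QKO and up to 0.0493 for QT7L1 against QKO. Atp5g3 was called in all 8 fits for QKO against WT (up to 0.0411) and for QT7 against QKO (up to 0.0496). For QT7L1 against QKO it was not called without QKO 1 (0.153), QKO 2 (0.101), QT7L1 1 (0.0504) or QT7L1 2 (0.238). Atp5g1 shares a stretch of 411 bases at 97% identity or more with transcripts of 2 other genes, which together had 3.8 to 6.61 CPM. Atp5g3 shares none, and how reads that fit several places were counted is not known from the labels.

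The promoters of the c-ring genes are shown because 2 of the 3 genes rose and the other was not called, beside that of Ndufv3, the 1 subunit gene lower in QKO than in WT. Each runs from 250 bases before to 50 after the RefSeq start (GRCm38.p6), 5′ to 3′ on the strand of the gene. Capitals mark matches, on either strand, to the motifs named after the sequences. The windows are chr11:96075582-96075881 for Atp5g1, chr2:73911277-73911576 for Atp5g3, chr15:102670998-102671297 for Atp5g2, all on the minus strand, and chr17:31519865-31520164 for Ndufv3, on the plus strand.
Atp5g1: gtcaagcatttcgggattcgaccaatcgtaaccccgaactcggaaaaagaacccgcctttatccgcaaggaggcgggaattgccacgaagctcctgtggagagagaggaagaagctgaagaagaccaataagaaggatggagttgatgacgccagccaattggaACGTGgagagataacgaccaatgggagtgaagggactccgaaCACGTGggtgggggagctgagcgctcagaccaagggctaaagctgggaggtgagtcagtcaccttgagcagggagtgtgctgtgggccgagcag
Atp5g3: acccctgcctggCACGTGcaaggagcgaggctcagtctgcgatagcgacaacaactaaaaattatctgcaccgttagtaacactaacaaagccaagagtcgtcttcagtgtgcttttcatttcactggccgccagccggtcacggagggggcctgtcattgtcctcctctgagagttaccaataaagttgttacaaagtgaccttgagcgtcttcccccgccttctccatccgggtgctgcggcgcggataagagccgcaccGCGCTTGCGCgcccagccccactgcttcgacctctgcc
Atp5g2: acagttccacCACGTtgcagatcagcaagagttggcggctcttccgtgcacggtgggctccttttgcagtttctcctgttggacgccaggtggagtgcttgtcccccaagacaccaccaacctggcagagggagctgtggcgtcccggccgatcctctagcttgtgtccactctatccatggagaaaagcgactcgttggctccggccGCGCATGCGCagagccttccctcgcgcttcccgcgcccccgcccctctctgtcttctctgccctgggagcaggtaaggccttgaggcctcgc
Ndufv3: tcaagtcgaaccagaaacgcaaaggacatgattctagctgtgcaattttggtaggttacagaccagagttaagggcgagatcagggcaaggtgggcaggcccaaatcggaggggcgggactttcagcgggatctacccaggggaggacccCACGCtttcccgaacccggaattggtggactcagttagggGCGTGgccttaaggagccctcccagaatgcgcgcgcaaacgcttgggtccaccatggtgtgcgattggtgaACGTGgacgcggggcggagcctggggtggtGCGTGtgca

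The motifs searched, on both strands, were an NRF1 motif, which appears as GCGCTTGCGC in the window of Atp5g3 and GCGCATGCGC in that of Atp5g2 and allows any base at the fifth position, CCGGAAG for GABPA and AANATGGC for YY1, which are regulators of nuclear genes for mitochondrial proteins, ACGTG and GCGTG as cores of the hypoxia response element bound by HIF, CACGTG as the E-box bound by factors such as MYC, and ATCAAAG for TCF/LEF factors. CACGTG contains ACGTG on both strands. The windows of Atp5g1 and Atp5g3 hold CACGTG, starting at base -44 and base -238 relative to the start site. Counting both strands, ACGTG was matched 3 times in the window of Atp5g1, 2 times in that of Atp5g3, and 1 time each in those of Atp5g2 and Ndufv3. GCGTG was matched 3 times in the window of Ndufv3 and 0 times in those of the c-ring genes. None of the 4 holds ATCAAAG.

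Of the 83 members, 69 were matched to a RefSeq promoter. The NRF1 motif was in 23.2% of these, against 4.60% of all 32851 promoters of the same length. The GABPA motif was in 21.7% against 8.86%, and the YY1 motif in 23.2% against 6.05%. ACGTG was in 27.5% against 19.6%, GCGTG in 52.2% against 32.4%, and CACGTG in 10.1% against 7.15%. The TCF/LEF motif was in 1.45% of them, the promoter of Ndufa5, against 3.73% of all promoters. A match gives the letters in the window and does not show binding.

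Of the rest of complex V, 1 gene was called in QKO against WT. Atp5k, the small subunit e in the membrane part, was at 67.6 and 74 CPM in QT7, 76.5 and 66.4 CPM in QT7L1, 96.3 and 81.8 CPM in QKO, and 65.8 and 68 CPM in WT. Both QKO libraries exceeded the other 6. The difference of QKO over WT was 0.41 ± 0.12 (adjusted p = 0.0272), and this call was lost without QKO 1 (0.206), QKO 2 (0.0513), WT 1 (0.109) or WT 2 (0.115). The catalytic subunits did not pass the test in any comparison. Atp5a1 was at 1308 ± 156 CPM in QT7, 1419 ± 4.67 in QT7L1, 1426 ± 40.4 in QKO and 1311 ± 0.926 in WT (SD, n = 2 each). Atp5b was at 2509 ± 30.0 CPM in QT7, 2729 ± 37.7 in QT7L1, 2506 ± 217 in QKO and 2404 ± 53.9 in WT. Atp5s, the low-abundance coupling factor B, was called in QT7L1 against QKO. It was at 4.11 and 3.73 CPM in QT7, 4.91 and 4.87 CPM in QT7L1, 2.20 and 2.63 CPM in QKO, and 2.79 and 3.36 CPM in WT. Both QKO libraries were the lowest, and the log2 fold change in QT7L1 over QKO was 1.01 ± 0.24 (adjusted p = 0.0117). This call was lost without QKO 1 (0.0806), QKO 2 (0.0528), QT7L1 1 (0.0585) or QT7L1 2 (0.063).

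**Figure D3:**
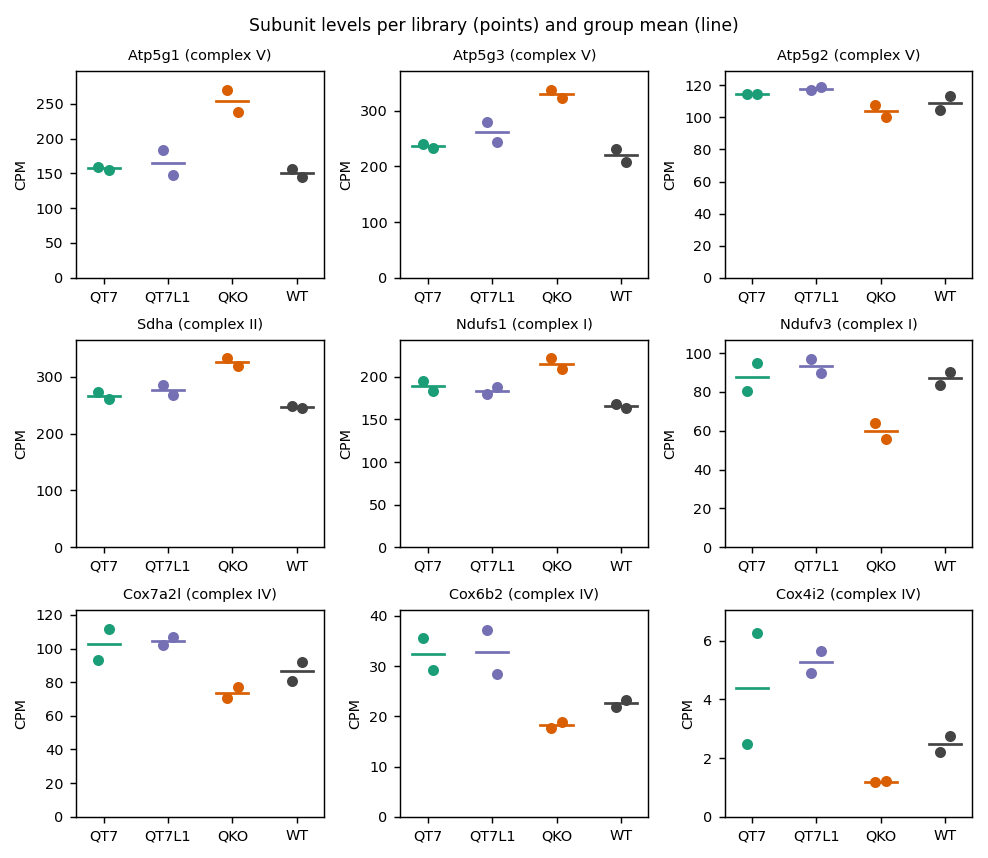
CPM of 9 subunit genes in each library (points) with the group mean (line), groups from left to right QT7, QT7L1, QKO and WT. Atp5g1, Atp5g3, Sdha and Ndufs1 are highest in both QKO libraries, and Ndufv3, Cox7a2l, Cox6b2 and Cox4i2 are lowest there, while Atp5g2 stays between 100.4 and 119 CPM.

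In complex I, the NADH dehydrogenase, most genes moved little. The core subunits Ndufs1, Ndufs3, Ndufs7, Ndufs8, Ndufv1 and Ndufv2, which bind the flavin or iron-sulphur centres or lie near the quinone site, had log2 fold changes between 0.19 and 0.45 in QKO over WT, and 2 of them were called. Ndufs1, the largest subunit of the electron input part, was at 195 and 183 CPM in QT7, 180 and 188 CPM in QT7L1, 222 and 209 CPM in QKO, and 168 and 163 CPM in WT. The QKO libraries were highest and the WT libraries lowest, without overlap. The difference of QKO over WT was 0.38 ± 0.09 (adjusted p = 0.0119), but not called without QKO 1 (0.0889), QKO 2 (0.0544) or WT 2 (0.0881). Ndufs8, which holds iron-sulphur centres near the quinone site, was at 35.7 and 37.5 CPM in QT7, 39.9 and 34.7 CPM in QT7L1, 42.7 and 42.6 CPM in QKO, and 28.4 and 34.1 CPM in WT. It had the same order, highest in QKO and lowest in WT, and its log2 fold change in QKO over WT was 0.45 ± 0.13 (adjusted p = 0.0297). That call was lost without QKO 1 (0.118), QKO 2 (0.131), WT 1 (0.175) or WT 2 (0.052). In QT7 against QKO and QT7L1 against QKO none of these 6 was called.

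Among the accessory subunits of complex I, Ndufa8, Ndufb5 and Ndufb10 were also higher in QKO than in WT. Ndufb10, a membrane-arm subunit, was at 59.9 and 67.1 CPM in QT7, 75 and 63.9 CPM in QT7L1, 98.1 and 87.8 CPM in QKO, and 72.5 and 72.2 CPM in WT. Both QKO libraries lay above the other 6. Its log2 fold change was 0.36 ± 0.12 in QKO over WT (adjusted p = 0.0417), -0.55 ± 0.12 in QT7 over QKO (adjusted p = 0.0075) and -0.42 ± 0.12 in QT7L1 over QKO (adjusted p = 0.021). Against WT it was not called without QKO 1 (0.241), QKO 2 (0.0929), WT 1 (0.126) or WT 2 (0.178). The QT7 call was lost without QKO 1 (0.0609), and the QT7L1 call without QKO 1 (0.145), QKO 2 (0.0574) or QT7L1 2 (0.174).

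Ndufa8, a subunit facing the intermembrane space that was added to the named genes after its values were seen, had a log2 fold change of 0.37 ± 0.12 in QKO over WT (adjusted p = 0.0435) and was called in 2 of the 8 fits that left out a library, with adjusted p up to 0.189. Ndufb5, of the membrane arm, had 0.31 ± 0.10 (adjusted p = 0.04) and was likewise called in 2 of 8, with adjusted p up to 0.184. Both were called in the fits without QT7 1 or QT7 2 and in no fit without a QKO, WT or QT7L1 library. Exons of Ndufb5 overlap those of Mrpl47 on the other strand, and exons of Ndufs1 overlap those of Eef1b2. The libraries were stranded, but the strand setting of the counting is unknown, so reads of such neighbours may have been shared.

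Ndufa5, an accessory subunit of the peripheral arm, was lower in both rescued groups than in QKO. It was at 30 and 31.2 CPM in QT7, 33.3 and 30.3 CPM in QT7L1, 45.5 and 38.5 CPM in QKO, and 33.9 and 35.5 CPM in WT. The QKO libraries were highest, and QKO against WT gave a log2 fold change of 0.27 ± 0.12 (adjusted p = 0.129). The log2 fold change was -0.46 ± 0.12 in QT7 over QKO (adjusted p = 0.0223), lost without QKO 1 (0.168) or QT7 1 (0.0661). In QT7L1 over QKO it was -0.40 ± 0.12 (adjusted p = 0.0351), called in 2 of the 8 fits that left out a library, those without QT7 1 or QT7 2, with adjusted p up to 0.246 in the others.

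Ndufv3, a small accessory subunit beside the flavoprotein, ran the opposite way. It was at 80.4 and 94.8 CPM in QT7, 96.7 and 89.7 CPM in QT7L1, 63.9 and 55.9 CPM in QKO, and 83.7 and 90.4 CPM in WT (chr17:31520115-31531331, plus strand). Both QKO libraries lay below the other 6, which overlapped. Its log2 fold change was -0.54 ± 0.12 in QKO over WT (adjusted p = 0.00917), 0.55 ± 0.12 in QT7 over QKO (adjusted p = 0.00799) and 0.64 ± 0.12 in QT7L1 over QKO (adjusted p = 0.00374). The QT7L1 call held in all 8 fits that left out a library (adjusted p up to 0.0464). The call against WT was lost without QKO 2 (0.0884) or WT 2 (0.0759), and the QT7 call without QKO 2 (0.0832).

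In QT7L1 against QKO, 3 more accessory subunits of complex I were higher. Ndufa6, near the matrix arm, was at 64 and 83.4 CPM in QT7, 90.9 and 87.5 CPM in QT7L1, 73.3 and 55.7 CPM in QKO, and 66.3 and 73.7 CPM in WT. QT7L1 was above every other library, while QKO and WT overlapped, and the log2 fold change over QKO was 0.47 ± 0.16 (adjusted p = 0.0464). Ndufa7 had 0.47 ± 0.15 (adjusted p = 0.0402) and Ndufb6 0.30 ± 0.10 (adjusted p = 0.0428). Of the 8 fits that left out a library, Ndufa6 was called in 3, Ndufa7 in 4 and Ndufb6 in 2. Each was lost without QKO 2 (Ndufa6 0.298, Ndufa7 0.23, Ndufb6 0.222), without QT7L1 1 (0.173, 0.162 and 0.0794, in the same order) and without QT7L1 2 (0.14, 0.119 and 0.209). Without QKO 1, Ndufa7 (0.06) and Ndufb6 (0.0968) were lost, and without WT 1 or WT 2, Ndufa6 (0.0623 and 0.0625) and Ndufb6 (0.0633 and 0.0633). Exons of Ndufb6 overlap those of Smim27 on the other strand.

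Complex II, succinate dehydrogenase, has 4 subunits, all encoded in the nucleus. Sdha, the flavoprotein that oxidises succinate (chr13:74322254-74350280, minus strand), was at 272 and 261 CPM in QT7, 285 and 268 CPM in QT7L1, 333 and 319.5 CPM in QKO, and 248 and 244 CPM in WT. The QKO libraries were highest and the WT libraries lowest, with no overlap of either with the rest. It rose in QKO against WT by 0.41 ± 0.09 (adjusted p = 0.0082), a call lost without QKO 1 (0.0602) or WT 2 (0.0635). It was lower in QT7 than in QKO by -0.29 ± 0.09 (adjusted p = 0.0306). That call held in 2 of the 8 fits, those without WT 1 or WT 2, with adjusted p up to 0.148 in the others. The QT7L1 value against QKO was -0.24 ± 0.09 (adjusted p = 0.0596).

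Sdhc, 1 of the membrane anchors of complex II, was at 142 and 160.0 CPM in QT7, 159 and 159.8 CPM in QT7L1, 131 and 115 CPM in QKO, and 127 and 129.7 CPM in WT. Both rescued groups lay above QKO and WT, which overlapped. It was higher in QT7L1 than in QKO by 0.38 ± 0.10 (adjusted p = 0.0203), lost without QKO 2 (0.165), QT7L1 1 (0.0821) or QT7L1 2 (0.0928), and QT7 over QKO gave 0.30 ± 0.10 (adjusted p = 0.0526). Sdhb, the iron-sulphur subunit, and Sdhd, the other anchor, were called in none of the comparisons. In QKO over WT their log2 fold changes were 0.05 and 0.25.

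In complex III, the cytochrome bc1 complex, all 8 genes had a positive log2 fold change in QKO over WT, with a median of 0.20, and 2 were called. Uqcrc1, a core subunit facing the matrix, was at 388 and 389 CPM in QT7, 407 and 386 CPM in QT7L1, 419.6 and 393 CPM in QKO, and 322 and 328 CPM in WT. WT was below the 6 other libraries, which overlapped. The log2 fold change in QKO over WT was 0.32 ± 0.09 (adjusted p = 0.021), lost without QKO 1 (0.137), QKO 2 (0.0716), WT 1 (0.0883) or WT 2 (0.0972). Uqcr10, a small subunit, was at 109 and 119 CPM in QT7, 114 and 100.4 CPM in QT7L1, 125 and 121 CPM in QKO, and 92.8 and 94.7 CPM in WT. QKO was highest and WT lowest, and the log2 fold change was 0.39 ± 0.10 (adjusted p = 0.0174), lost without QKO 1 (0.102), QKO 2 (0.0821), WT 1 (0.0764) or WT 2 (0.0899). Uqcrc2, the other core subunit, and Uqcrfs1, the Rieske iron-sulphur protein, gave 0.24 and 0.11 and were not called. No complex III gene was called in QT7 or QT7L1 against QKO.

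In complex IV, cytochrome c oxidase, no subunit was called in QKO against WT, and most calls against QKO were of isoforms or of Cox7a2l. The 10 widely expressed subunits Cox4i1, Cox5a, Cox5b, Cox6a1, Cox6b1, Cox6c, Cox7a2, Cox7b, Cox7c and Cox8a, together with Ndufa4, had log2 fold changes between -0.09 and 0.28 in QKO over WT. The highest were those of Cox5a, Cox6c, Cox7a2 and Cox7c, between 0.24 and 0.28, and in these 4 both WT libraries lay below the 6 others. Of the widely expressed subunits, Cox6a1 was called in QT7L1 against QKO. It was at 187 and 213 CPM in QT7, 218 and 218 CPM in QT7L1, 181 and 161 CPM in QKO, and 168 and 195 CPM in WT. QT7L1 was highest and QKO overlapped with WT. The log2 fold change in QT7L1 over QKO was 0.35 ± 0.11 (adjusted p = 0.0346), lost without QKO 1 (0.0548), QKO 2 (0.217), QT7L1 1 (0.12) or QT7L1 2 (0.127).

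Cox4i2, the isoform of subunit 4 known from lung and from cells in low oxygen, was rare, with 38 to 273 counts per library. It was at 2.48 and 6.28 CPM in QT7, 4.91 and 5.66 CPM in QT7L1, 1.18 and 1.22 CPM in QKO, and 2.22 and 2.77 CPM in WT (chr2:152754173-152765037, plus strand). Both QKO libraries were below the other 6. It was higher in QT7L1 than in QKO by 2.14 ± 0.41 (adjusted p = 0.00476), in all 8 fits that left out a library (up to 0.0473). In QT7 it exceeded QKO by 1.87 ± 0.41 (adjusted p = 0.00915), lost without QKO 1 (0.0605) or QKO 2 (0.0716). QT7 1 lay near WT and QT7 2 well above it, and the fold change over QKO lay between 1.05 and 2.39 when a library was left out. In QKO over WT the value was -1.06 ± 0.41 (adjusted p = 0.0815). The common isoform Cox4i1 was at 562 ± 90.9 CPM in QT7, 611 ± 37.0 in QT7L1, 558 ± 27.8 in QKO and 537 ± 21.9 in WT (SD, n = 2 each).

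Cox6b2, the isoform of subunit 6b known from testis (chr7:4751792-4753094, minus strand), was at 35.5 and 29.2 CPM in QT7, 37.2 and 28.4 CPM in QT7L1, 17.7 and 18.8 CPM in QKO, and 21.8 and 23.4 CPM in WT. All 4 rescued libraries were above WT, and WT above QKO. It was higher in QT7 than in QKO by 0.83 ± 0.16 (adjusted p = 0.00555) and in QT7L1 than in QKO by 0.85 ± 0.16 (adjusted p = 0.00449), in all 8 fits that left out a library for both. The value in QKO over WT was -0.31 ± 0.16 (adjusted p = 0.182). Its widely expressed counterpart Cox6b1 was not called in any comparison.

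Cox7a2l, a relative of subunit 7a that joins complexes III and IV into supercomplexes (chr17:83501918-83517330, minus strand), was at 92.9 and 112 CPM in QT7, 102 and 107 CPM in QT7L1, 70.3 and 76.9 CPM in QKO, and 80.9 and 92.0 CPM in WT. The rescued libraries were highest and QKO lowest. It was higher in QT7 than in QKO by 0.48 ± 0.12 (adjusted p = 0.0149), lost without QKO 1 (0.101), QKO 2 (0.06) or QT7 2 (0.063). In QT7L1 over QKO the value was 0.51 ± 0.12 (adjusted p = 0.0108), lost without QKO 1 (0.0739) or QT7L1 2 (0.0711). It shares a stretch of 342 bases with 1 other gene that had 17.3 to 29.7 CPM, so its own level is uncertain by reads that fit both. Cox7a1, the heart and muscle isoform, was at 4.03 and 7.08 CPM in QT7, 6.18 and 6.43 CPM in QT7L1, 3.38 and 2.63 CPM in QKO, and 3.07 and 5.71 CPM in WT. QKO overlapped with WT, and QT7L1 over QKO gave 1.07 ± 0.35 (adjusted p = 0.0436), lost without QKO 1 (0.0963), QKO 2 (0.228), QT7L1 1 (0.133) or QT7L1 2 (0.16).

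The other isoforms of complex IV were close to the limit of detection. Cox7b2 was at 2.48 and 0.21 CPM in QT7 and at or below 0.313 CPM in QT7L1, QKO and WT. The 97 counts in QT7 1 were the most in any library, and 1 count the fewest. Cox8c, known from testis, lay between 0.13 and 0.89 CPM, with QT7 1 again the highest library. Cox6a2 and Cox8b, isoforms of heart and skeletal muscle, had at most 5 counts and 1 count in a library and were not tested. The common isoforms beside them, Cox7b and Cox8a, were at 172 CPM or more in each library.

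Against WT and against each other the rescued groups showed no subunit past the threshold. In QT7 against QT7L1 the edgeR test called 0 of 81 (0.00606% of all genes), with 6 at an unadjusted p under 0.05 (11.1% of all genes) and 1 called by DESeq2. The subunits' median log2 fold change was -0.10, against 0.00 over all genes, and 72 of the 81 were negative. This median was -0.03 without QT7 1, -0.06 without QT7L1 1 and -0.21 without QT7 2. In QT7 against WT edgeR called 0 (4.62% of all genes), with 10 at an unadjusted p under 0.05 (20.2% of all genes), 1 called by DESeq2 and a median of 0.10 against 0.01. That median was 0.17 without QT7 1 and 0.03 without QT7 2. In QT7L1 against WT edgeR called 0 (0.745% of all genes), with 29 at an unadjusted p under 0.05, all of them higher in QT7L1. That is 35.8% of the subunits, against 15.4% of all genes in either direction. The 29 were 10 without WT 1 and 11 without QT7L1 1. DESeq2 called 1, Ndufv2, a core subunit of complex I that edgeR put at a log2 fold change of 0.44 (adjusted p = 0.0889). The median was 0.19, against 0.00, and 76 of the 81 were positive. The single DESeq2 calls in the other comparisons were Cox7b2 in QT7 against QT7L1 and Cox6b2 in QT7 against WT. Leaving out QT7 1 or QT7 2 gave some subunit calls with edgeR in these comparisons, each time a smaller share of the subunits than of all genes.

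Over the 4 groups, WT was most often the lowest. In 22 of 81 subunits (27.2%) both WT libraries lay below the 6 others, against 6.85% of all genes, and in none did both lie above them, against 8.14%. The 22 came from all complexes and included Sdha, Uqcrc1, Uqcrc2, Uqcrfs1, Cox5a, Cox7c, Atp5g3, Ndufs1 and Ndufv2. Both QKO libraries lay above the 6 others in 12 (14.8%, against 19.6% of all genes) and below them in 5 (6.17%, against 21.5%). The 5 were Ndufv3, Cox4i2, Cox6b2, Cox7a2l and Atp5s. The median of the subunits, centred per gene, was -0.10 and 0.05 in QT7, 0.14 and 0.04 in QT7L1, 0.09 and -0.03 in QKO, and -0.14 and -0.06 in WT on the log2 scale. The ranges of QT7, QT7L1 and QKO overlapped. Both libraries of QT7L1 and of QKO lay above both WT libraries, and QT7 1 lay between the WT libraries. In these bulk samples, fewer cells of a type and less RNA per cell cannot be told apart.

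The subunits encoded in the mitochondrial genome varied far more between replicates than the nuclear ones. The 13 genes summed to 14897 and 4315 CPM in QT7, 11263 and 4529 CPM in QT7L1, 5469 and 8035 CPM in QKO, and 7816 and 4094 CPM in WT. The 2 libraries of each group thus differed, by the largest amount in QT7. None of the 13 was called in QKO against WT, and mt-Co3 alone was called in QT7 against QKO (0.94 ± 0.28, adjusted p = 0.030) and QT7L1 against QKO (0.91 ± 0.28, adjusted p = 0.0324). It was at 10.5 and 7.52 CPM in QT7, 8.15 and 9.53 CPM in QT7L1, 4.81 and 4.60 CPM in QKO, and 9.17 and 5.37 CPM in WT. The QT7 call was lost without QKO 1 (0.113), QKO 2 (0.156) or QT7 1 (0.117), and the QT7L1 call without QKO 1 (0.113), QKO 2 (0.157), QT7L1 1 (0.0799) or QT7L1 2 (0.164). Its level was far under the 7270 and 1979 CPM of mt-Co1 in QT7, although both are core subunits of complex IV. With reads from the mitochondrial genome left out of the library sizes, the counts of called nuclear subunits stayed at 12, 9 and 15.

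**Figure D4:**
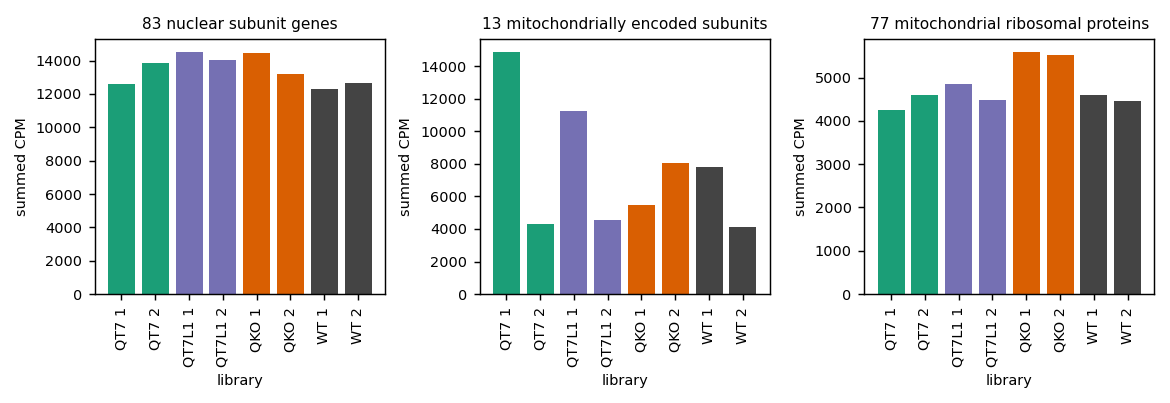
Summed CPM per library of the 83 nuclear subunit genes, the 13 mitochondrially encoded subunits and the 77 mitochondrial ribosomal protein genes, libraries from left to right QT7, QT7L1, QKO and WT. The nuclear sums lie between 12277 and 14541 CPM, the mitochondrially encoded sums between 4094 and 14897 CPM with wide gaps within groups, and the ribosomal protein sums are highest in both QKO libraries.

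Genes that build or feed the chain were read out in the same fit, where 11.7% of all genes were higher and 14.7% lower in QKO against WT, 14.8% higher and 12.1% lower in QT7 against QKO, and 15.9% higher and 13.9% lower in QT7L1 against QKO. In each fit that left out a library of the groups compared, fewer of all genes were called, so smaller counts there are not particular to a list. Of 49 tested assembly factors, which fit cofactors and subunits together, 9 were higher and none lower in QKO than in WT, with a median of 0.18. In QT7 against QKO 1 was higher and 6 lower, and in QT7L1 against QKO 5 were higher and 6 lower. In both, the share of lower factors was near that of all genes and the share of higher ones below it. Uqcc3, a complex III assembly factor, was at 15.7 and 16.7 CPM in QT7, 17.1 and 14.8 CPM in QT7L1, 27.5 and 26.3 CPM in QKO, and 16.5 and 17.6 CPM in WT. QKO was above all others, at 0.65 over WT (adjusted p = 0.00877). The same held for Coa7, a complex IV assembly factor, at 30 and 24.3 CPM in QT7, 22.3 and 22.1 CPM in QT7L1, 40.6 and 37.5 CPM in QKO, and 26.1 and 24.6 CPM in WT, or 0.62 over WT (adjusted p = 0.00917). Against WT, Uqcc3 was not called without WT 2 (0.0513), QKO 1 (0.0606) or QKO 2 (0.0556), and Coa7 was not called without WT 2 (0.077) or QKO 1 (0.0668). With no scaling beyond library size, QKO against WT gave 6 higher and 1 lower. Among all genes, too, there were then fewer higher and more lower calls. The count of higher factors was 0 without WT 2, 0 without QKO 1 and 1 without QKO 2. For QT7 against QKO the lower calls numbered 3 without QKO 1 and 2 without QKO 2, and the higher calls 4 without QT7 1. For QT7L1 against QKO the higher and lower calls numbered 3 and 3 without QKO 1, 0 and 2 without QKO 2, 1 and 3 without QT7L1 1, and 0 and 1 without QT7L1 2.

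The 77 mitochondrial ribosomal proteins, which translate the mitochondrially encoded subunits, showed the largest share of higher genes among the 9 lists in QKO against WT. There 30 were higher and 1 lower, with a median of 0.28. In QT7 against QKO 0 were higher and 29 lower (median -0.30), and in QT7L1 against QKO 1 was higher and 24 lower (median -0.20). Their summed level was 4252 and 4609 CPM in QT7, 4846 and 4487 CPM in QT7L1, 5601 and 5523 CPM in QKO, and 4587 and 4457 CPM in WT. Both QKO libraries were above the 6 others. The number higher in QKO than in WT was 16 with no scaling beyond library size, 18 without WT 1, 5 without WT 2, 11 without QKO 1 and 7 without QKO 2. The number lower in QT7 than in QKO was 18 with no scaling beyond library size, 14 without QKO 1, 11 without QKO 2 and 19 without QT7 1. In QT7L1 against QKO it was 13 without QKO 1, 9 without QKO 2, 14 without QT7L1 1 and 8 without QT7L1 2. The 88 cytosolic ribosomal proteins gave 4 higher and 2 lower in QKO against WT, 2 and 3 in QT7 against QKO, and 16 and 3 in QT7L1 against QKO. With no scaling beyond library size, the split in QT7 against QKO was 11 and 2, and higher calls among all genes rose too. The 16 were 26 with no scaling beyond library size, 10 without QKO 1, 0 without QKO 2, 0 without QT7L1 1 and 2 without QT7L1 2.

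Of 12 regulators of mitochondrial biogenesis, Nrf1, Gabpa and Yy1 were higher in QKO than in WT, by 0.32, 0.32 and 0.31 (adjusted p = 0.0367, 0.028 and 0.0391), and none was lower. Their motifs were counted in the promoters, but whether these factors changed the subunit transcripts was not tested. Exons of Gabpa overlap those of the subunit gene Atp5j on the other strand. With the strand setting of the counting unknown, reads of these neighbours may have been shared. Nrf1 was at 79 and 72.9 CPM in QT7, 76.1 and 76 CPM in QT7L1, 93.4 and 101 CPM in QKO, and 79.5 and 77.1 CPM in WT. QKO was above the 6 others. None of these 3 calls was made with no scaling beyond library size, or without WT 1, WT 2, QKO 1 or QKO 2. Without QT7L1 1 or QT7L1 2, Gabpa alone was called. In QT7 against QKO 3 regulators were lower and in QT7L1 against QKO 4. The count in QT7 against QKO was 0 with no scaling beyond library size, and that in QT7L1 against QKO was 1 without QKO 1. Both counts fell to 0 without QKO 2, that of QT7 also without QKO 1 or QT7 2, and that of QT7L1 also without QT7L1 1 or QT7L1 2.

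Among 11 electron carriers and feeders of the chain, Cyc1, the cytochrome of complex III, Cycs, the mobile carrier cytochrome c, and Gpd2, which passes electrons from glycerol 3-phosphate to coenzyme Q, were higher in QKO than in WT. Cycs was at 84.1 and 97.5 CPM in QT7, 93.5 and 80.7 CPM in QT7L1, 148 and 141 CPM in QKO, and 91.2 and 99.7 CPM in WT. Both QKO libraries were well above the other 6, at a log2 fold change of 0.60 over WT (adjusted p = 0.0052), -0.67 in QT7 over QKO (adjusted p = 0.003) and -0.73 in QT7L1 over QKO (adjusted p = 0.00195). Cycs was called in all 8 fits that left out a library, in each of the 3 comparisons (up to 0.0392). Higher and lower genes numbered 2 and 3 in QT7 against QKO and 1 and 2 in QT7L1 against QKO. Without QKO 2 they numbered 0 and 1 in QT7 against QKO and 0 and 2 in QT7L1 against QKO. Of 17 TCA cycle enzymes, Mdh2 and Idh3b were higher in QKO than in WT, with 2 higher and 2 lower in QT7 against QKO and 1 and 1 in QT7L1 against QKO. Mdh2 and Idh3b made up 11.8% of the enzymes, near the 11.7% of all genes that were higher. Of 13 genes of coenzyme Q synthesis, 3 were higher and 2 lower in QKO against WT, 2 and 0 in QT7 against QKO, and 5 and 3 in QT7L1 against QKO. In either direction, 26.4, 26.9 and 29.7% of all genes were called in these 3 comparisons. The shares were 27.3, 45.5 and 27.3% of the carriers and feeders, and 11.8, 23.5 and 11.8% of the TCA cycle enzymes. For coenzyme Q synthesis they were 38.5, 15.4 and 61.5%. Without QKO 2 no TCA cycle enzyme was called in QKO against WT or QT7 against QKO, and 1 was lower in QT7L1 against QKO. Without QKO 2 the higher and lower genes of coenzyme Q synthesis numbered 0 and 0, 0 and 0, and 2 and 0 in these comparisons. Leaving out another library of the groups compared also gave fewer calls in these 3 lists in most fits.

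The list with the largest changes was that of 10 genes linked to HIF, the oxygen-sensing transcription factor. Its members were Ndufa4l2, Cox4i2, Higd1a, Pdk1, Lonp1, Bnip3, Egln1, Egln3, Pgk1 and Slc2a3, so that it was not a list of respiratory chain genes. In QKO against WT 0 were higher and 7 lower (median -1.23), and in QT7 and QT7L1 against QKO 8 were higher and 0 lower (medians 1.37 and 1.69). Cox4i2 is the only respiratory chain subunit on it. Ndufa4l2, a relative of Ndufa4 that HIF induces and that the rule leaves out, was at 29.3 and 62.1 CPM in QT7, 45.1 and 66.3 CPM in QT7L1, 1.71 and 1.77 CPM in QKO, and 30.9 and 43.4 CPM in WT. QKO was far below all others, with a log2 fold change of -4.42 ± 0.45 over WT (adjusted p = 0.00153). Ndufa4 itself was at 168 and 171 CPM in QT7, 198 and 183 CPM in QT7L1, 183 and 168 CPM in QKO, and 171 and 189 CPM in WT, and QKO over WT gave -0.04 (adjusted p = 0.793).

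**Figure D5:**
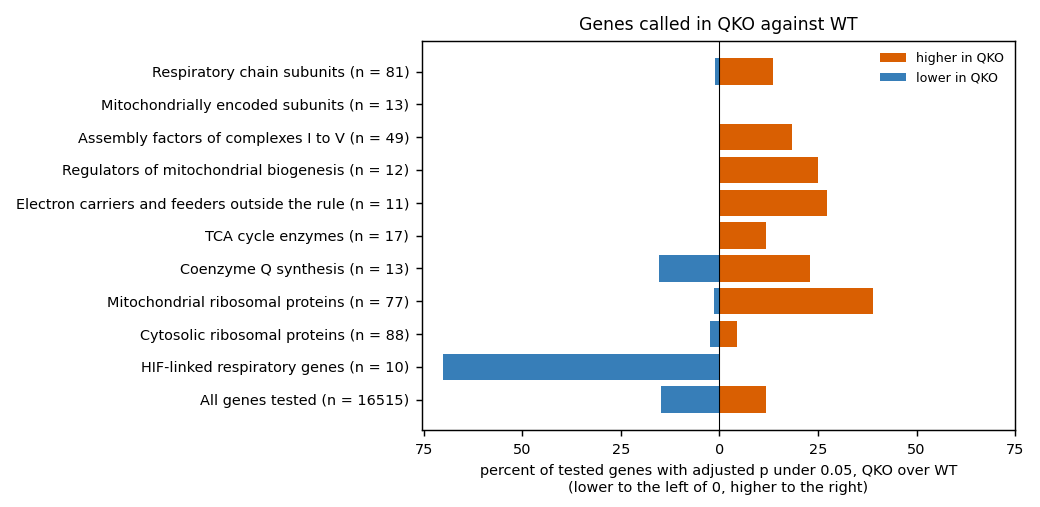
Percent of tested genes with an adjusted p under 0.05 in QKO over WT, for the respiratory chain subunits, the 9 lists and all genes; bars to the right of 0 are genes higher in QKO and bars to the left genes lower in QKO. The mitochondrial ribosomal proteins reach furthest to the right (30 of 77 genes) and the HIF-linked genes furthest to the left (7 of 10), while the subunits have 11 of 81 higher and 1 lower.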

How the data were processed

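The submitters' processing notes name bcl2fastq 1.8.4, STAR 2.4.0f1, HTSeq and DESeq2 (listed as 2.1.8.3), on the build mm10 (GRCm38). The strand and multiple-mapping settings of HTSeq were not given in the sources used here. Deposited library files hold whole-number counts per Ensembl gene. Per the file headers, the authors' comparison tables hold mean normalised signal, log2 fold changes with SE, a test score, and p-values with adjusted p-values. They were used for gene symbols and a comparison of calls.

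Counts were tested in R 4.3.3 with edgeR 4.0.16 (filterByExpr, TMM, a quasi-likelihood fit with 1 mean for each of 4 groups over 8 libraries, 2-sided F tests, Benjamini-Hochberg over 16515 genes, threshold 0.05). SE was taken as |log2 fold change| over the root of F. The test was tried on simulated counts. Log2 CPM used a prior count of 2. DESeq2 1.42.0 and 6 other settings, plus 8 fits that each left out a library, were alternatives. Named genes are the called members, up to 4 per direction, complex and comparison, plus fixed core subunits and isoforms, of which 1 is not reported here. In the text, fold changes without a stated direction are log2. Members and lists (mitochondrially encoded subunits, assembly factors, biogenesis regulators, electron carriers, TCA cycle, coenzyme Q synthesis, mitochondrial and cytosolic ribosomal proteins, HIF-linked genes) were chosen with earlier results of these data known. Coordinates are from GENCODE M21.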

Additional observations from a re-analysis of the deposited data

How the results depend on the processing

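All 36 calls of subunits kept their sign in each of the 15 alternatives. The number of subunits called was 12 in QKO against WT, 9 in QT7 against QKO and 15 in QT7L1 against QKO, and 12, 11 and 14 with DESeq2. With no scaling beyond library size it was 6, 12 and 17. Of all genes, 26.4, 26.9 and 29.7% were called in the main fit. The shares were 26.8, 28.1 and 29.1% with DESeq2, and 25.5, 27.3 and 29.5% with no scaling beyond library size. The share of all genes called also changed with the library left out. Leaving out each library in turn gave 2 to 15, 4 to 12 and 4 to 19. In QT7 against QT7L1, QT7 against WT and QT7L1 against WT, none was called, 1 each with DESeq2, and 1, 3 and 6 with no filter on low counts. Fitting only the 2 groups compared gave 2 of 79 in QT7L1 against WT, where 3.93% of all genes were called. Leaving out each library gave 0 to 5, 0 to 3 and 0 to 2. The cause was not tested. In the QKO comparisons 11, 10 and 13 subunits passed in the authors' deposited tables, of which 11, 9 and 13 were called here in the same direction. Of the 25911 genes with an adjusted p there, 14.5, 15.5 and 16.3% passed. In the same tables Cox7b2 passed in QT7 against QT7L1 (adjusted p = 0.0266), where 0.826% of all genes did. Ndufv2 passed in QT7L1 against WT (adjusted p = 0.0318), where 1.78% of all genes did. No subunit passed in QT7 against WT.

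Replicate numbers were not taken as pairs, since same-numbered libraries deviated together with r between -0.205 and 0.164. With a replicate block 13, 9 and 13 subunits were called, and Ndufa6 (0.0556) and Ndufb6 (0.0594) were not called in QT7L1 against QKO. Of all genes, 26.1, 26.6 and 29.4% were called in that fit.

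With n = 2 libraries a group, single libraries decided many calls. Clone and genotype cannot be told apart beyond 2 clones a line. Isoforms with few counts are limited by depth. Reads shared between near-identical copies were not resolved.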
